A study of Mus musculus with 2 samples.

Results

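The 10 genes described here encode the proteins that release and take back calcium at each heartbeat: Cacna1c, Ryr2, Trdn, Jph2, Casq2, Hrc, Atp2a2, Pln, Slc8a1 and Camk2d. They were chosen by name, for what their proteins do, and all 10 were found among the 24522 gene IDs of the chamber table and the 22679 gene IDs of the fixation table. In a heart muscle cell, an action potential opens L-type calcium channels in the surface membrane and its inward folds, and the calcium that enters opens ryanodine receptors in the facing membrane of the sarcoplasmic reticulum, the internal calcium store. The large release from the store switches on contraction. Relaxation follows when the SERCA pump returns most of the calcium to the store and the sodium-calcium exchanger carries the rest out of the cell.

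The cells came from hearts of adult wild-type C57BL/6 mice that were digested with enzymes through the coronary vessels, and were sorted singly into plates on a sorter built for large particles, the method the study set out to assess. RNA was counted by SCRB-seq, a plate method that primes on the polyA tail, reads the 3′ end of each transcript and counts unique molecular identifiers (UMIs), so that PCR copies of 1 molecule count once. The chamber study, in mice of about 3 months, held unfixed cells labelled by chamber, 71 from the left atrium (LA), 69 from the right atrium (RA), 96 from the left ventricle (LV) and 96 from the right one (RV), spread over 4 libraries named A to D. The fixation study held ventricular cells of adult mice, 36 sorted after fixation (fixed), in which 200 µL of cells in saline received 800 µL of cold 100% ethanol, and 36 sorted before it (live). The cells kept had 1000 or more gene UMIs in 500 or more genes, which left 56 LA, 44 RA, 91 LV, 90 RV, 35 fixed and 31 live cells. The labels do not tie cells to animals. Each group is therefore 1 pool without a biological replicate, no difference was tested, and the intervals below are exact 95% intervals that cover counting error only. The 4 libraries of the chamber study reuse 1 set of cell barcodes, with 80 barcodes in all 4, and all 72 barcodes of the fixation study occur there too; cells are told apart by library and study. The labels describe excision of the ventricle after digestion, and how atrial cells were taken is not given in the sources used here. LA, RA, LV and RV below stand for the deposited labels. In libraries A and B, LV held barcode rows 1 and 2, RV 3 and 4, LA 5 and 6 and RA 7. In C and D, LV held rows 3 and 4, RV 1 and 2, LA 7 and RA 5 and 6. Chamber and barcode row therefore cannot be told apart within a library.

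Several features of the pools bear on every value below. Levels are UMIs of a gene per 1000000 nuclear-encoded UMIs (CPM), so mitochondrially encoded genes stay outside the total; the pools summed to 933747 such UMIs for LA and 470095 for RA, 2566040 for LV and 2988611 for RV, and 2424636 for fixed and 1483859 for live cells. Median gene UMIs per cell were 16146 in LA and 4436.5 in RA, 40953 in LV and 50503 in RV, and 77150.0 in fixed and 40367 in live cells. Unprocessed pseudogenes took 21.8% of the nuclear-encoded UMIs in fixed and 25.8% in live cells. In the chamber pools they took 0.343% in LA and 0.379% in RA, and 0.532% in LV and 0.549% in RV. Levels and shares of the 2 studies therefore rest on unlike totals. Pan-myocyte markers took 4.46% in LA and 6.11% in RA, 5.29% in LV and 5.64% in RV, and 2.37% in fixed and 3.05% in live cells. The atrial labels go against the marker genes: Nppa, the atrial natriuretic peptide gene, had no UMI in LA or RA cells, and Myl7, Myl4 and Sln, further atrial genes, had none in RA. Summed ventricular markers were 1.85% of the pool for LA and 2.34% for RA cells, against 2.09% in LV and 2.05% in RV cells, and 1.05% in fixed and 1.09% in live cells. Summed atrial markers took 0.0150% in LA and 0.00532% in RA, against 0.00343% in LV and 0.00418% in RV. Erythroid genes, which mark red blood cell RNA, took 2.68% in LA and 4.99% in RA, against 1.21% in LV and 1.30% in RV, and mesothelial genes 0.171% in LA and 0.0185% in RA, against 0.00518% in LV and 0.00699% in RV. The part of this other RNA in the ratios below was not tested beyond the cells left out. The median mitochondrial share was 35.3% for LA and 33.1% for RA cells, against 39.6% for LV and 42.9% for RV cells. A few cells stand apart. In RA, 2 library C cells with 183391 and 137115 gene UMIs held 44.1% of the nuclear-encoded UMIs of the pool, and 3 atrial cells (2 in LA, 1 in RA) carried over 0.5% mesothelial UMIs. The 2 LA cells among these held 10.6% and 6.32% of the LA nuclear-encoded UMIs. For the 10 genes the medians and counts past 1.5-fold were recomputed without the cells standing apart, and single ratios are given so for some. Ratios of the wider list, partner ratios other than Pln per Atp2a2, sums over genes and shares of the pools include these cells throughout.

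Pooled over sides, none of the 10 genes was 1.5-fold apart between cells with atrial and ventricular labels, while LA and RA pools differed for 4 of them, given further down. The ratios of LA and RA cells over LV and RV cells ran from 0.715 for Slc8a1 to 1.03 for Camk2d. Within each of libraries A, B and D, 2 members were at least 1.5-fold lower. Over all genes with at least 30 UMIs, 40.2% were at least 1.5-fold apart in this comparison, and among genes with at least 300 UMIs, as each of the 10 has, it was 15.0%. With only 10 genes, the members' count is not set apart from the 15.0%. The median log2 ratio of the 10 was -0.20, against -0.07 for all genes with at least 30 UMIs. Together the 10 genes made up 1.20% of the LA and 1.74% of the RA pool, against 1.49% of the LV and 1.63% of the RV pool. UMI counts at the 3′ end were not divided by transcript length, so levels are compared between groups for 1 gene and not between genes.

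Cacna1c encodes the pore of the L-type calcium channel, the entry point of the trigger calcium. It lies at chr6:118587240-119196418 (GRCm38, minus strand). In libraries A to D it stood at 1083, 1033, 718 and 1665 CPM in LA and at 1833, 2197, 1796 and 971 CPM in RA, and the ranges overlap because the library D values stand in the opposite order to the other 3. In LV it stood at 1326, 1961, 1419.5 and 1464 CPM and in RV at 1669, 2137, 1657 and 2011 CPM, with LV below RV in each library. The atrial pool was 0.758 (0.721 to 0.798) times the ventricular pool, LA was 0.591 (0.539 to 0.649) times RA, and LV was 0.824 (0.790 to 0.858) times RV. Cacna1c was thus the member with the largest left to right difference between the ventricles, although it was under 1.5-fold and single-library values of LV and RV overlap.

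Ryr2 encodes the ryanodine receptor, the release channel of the store, and lies at chr13:11553102-12106945 on the minus strand. In libraries A to D it stood at 1979, 2278, 1181 and 4241 CPM in LA and at 2042, 3678, 3070.4 and 2548 CPM in RA, so that LA held both the lowest and the highest of these 8 values. LV was narrow, at 2673, 3050.3, 2829.8 and 2804 CPM, and RV stood at 3302, 3267, 2438 and 3894 CPM. The ratios were 0.801 (0.772 to 0.832) for atrial over ventricular, 0.745 (0.695 to 0.798) for LA over RA and 0.894 (0.867 to 0.922) for LV over RV. LV was below RV in 3 of 4 libraries and above it in library C.

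Trdn encodes triadin, the membrane anchor that ties calsequestrin to the ryanodine receptor, and lies at chr10:33080554-33476709 on the plus strand. It showed the widest gap between the atrial labels: 715, 889.8, 490.5 and 687 CPM in LA, against 1033, 1911, 1866 and 1062 CPM in RA, in libraries A to D. The highest LA value was below the lowest RA value, and Trdn was the only member whose LA and RA library values did not overlap, which 1.78% of all genes with at least 300 UMIs showed. This separation rests on single cells: without the mesothelial-rich cells Trdn stood at 715, 1141, 998 and 687 CPM in LA, against 1033, 1911, 1878 and 1062 CPM in RA, so that LA of library B lay above RA of libraries A and D. Without the 2 deep RA cells the values did not overlap. The pooled ratio of LA over RA was 0.460 (0.416 to 0.510), and within libraries A to D it was 0.692, 0.466, 0.263 and 0.647. The ventricles were close, with 1045, 1278, 1151 and 1216 CPM in LV and 1317, 1592, 1039.6 and 1369.8 CPM in RV. Trdn shares its locus with D830005E20Rik, counted separately with 489 UMIs in the chamber study; strand use in counting is not given in the sources used here.

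Jph2 encodes junctophilin-2, which holds the surface membrane and the store membrane at a fixed distance, and lies at chr2:163336242-163397993 on the minus strand. Casq2, at chr3:102086415-102146514 on the plus strand, encodes cardiac calsequestrin, the calcium-binding protein inside the store. Jph2 ran from 118 to 266 CPM over LA libraries and from 182 to 394 over RA libraries, with 246 to 388 in LV and 279 to 393 in RV. Its ratios were 0.854 (0.762 to 0.956) for atrial over ventricular, 0.705 (0.571 to 0.872) for LA over RA and 0.928 (0.843 to 1.02) for LV over RV, and in each comparison the library values overlap. Casq2 pools lay between 603 and 668 CPM, at 603 CPM in the LA and 668 CPM in the RA pool, beside 609 CPM in the LV and 653 CPM in the RV pool, but its library values scattered. In libraries A to D it stood at 592, 609.9, 327 and 1133 CPM in LA and 455, 1505, 624 and 546 CPM in RA, and the ratio of LA over RA ran from 0.405 in library B to 2.08 in library D. LV stood at 550.3, 537, 669 and 679.9 CPM and RV at 718, 706, 498 and 743 CPM, with LV above RV in library C alone. Its atrial to ventricular ratio was 0.987 (0.916 to 1.06), on either side of 1 within libraries, and turned above 1 with all gene UMIs as the total. Hrc, at chr7:45335290-45338974 on the plus strand, encodes a second calcium-binding protein of the store that also touches the pump. It stood at 451, 564, 227 and 876 CPM in LA and 959.5, 812, 1009.7 and 516 CPM in RA for libraries A to D. LA was below RA in libraries A, B and C and above it in D, and the pooled ratio was 0.532 (0.466 to 0.607). In the ventricles Hrc was one of 3 members with a pooled ratio of LV over RV above 1, at 1.11 (1.04 to 1.18), beside Camk2d and Pln, whose ratios turned below 1 with median-of-ratios factors.

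Atp2a2 encodes SERCA2, the pump that refills the store, and lies at chr5:122453513-122502225 on the minus strand. It had at least 1 UMI in every kept cell of all 6 groups. In libraries A to D it stood at 5212, 5116, 3006 and 6661 CPM in LA and 6679.6, 6879, 7039 and 4914 CPM in RA, with the lowest LA value in library C and the lowest RA value in library D, and the ranges overlap. LV spanned 5255 to 5751 CPM and RV 5515 to 7329 CPM. Atp2a2 was 0.961 (0.938 to 0.985) times as high in the atrial as in the ventricular pool, and this ratio turned above 1 without library B, without the mesothelial-rich cells and with mitochondrial genes counted in the total.

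Pln encodes phospholamban, a small membrane protein that slows the SERCA pump until it is phosphorylated. Its coding sequence is shown because the pump's brake is released at 2 neighbouring residues, a serine phosphorylated by protein kinase A and a threonine phosphorylated by CaMKII, the kinase of which Camk2d encodes the main cardiac subunit. The sequence is from the GENCODE M21 transcripts, at chr10:53343864-53344022 (GRCm38, plus strand), 159 bases, the same in 6 annotated transcripts; capitals mark codons 16 (serine) and 17 (threonine).
Pln coding sequence: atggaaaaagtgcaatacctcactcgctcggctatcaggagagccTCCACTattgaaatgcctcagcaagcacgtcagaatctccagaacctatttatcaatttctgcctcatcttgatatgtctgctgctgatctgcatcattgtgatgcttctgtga
Phosphorylation itself is outside these data, which count transcripts by their 3′ ends. Pln stood at 1154, 876, 609 and 1202 CPM in LA and 972, 1075, 1102 and 819 CPM in RA libraries. LV libraries held 1008, 1004, 931 and 1171 CPM and RV libraries 1052, 1114, 856 and 1051 CPM. All 16 values fall between 609 and 1202 CPM and the 4 chambers overlap. Without the mesothelial-rich cells the LA libraries stood at 1154, 1127, 1213 and 1202 CPM, above the RA libraries at 972, 1075, 1111 and 819 CPM, which 1.94% of all genes with at least 300 UMIs showed as non-overlap in that setting. The ratios were 0.978 (0.921 to 1.04) for atrial over ventricular, 0.910 (0.814 to 1.02) for LA over RA and 1.02 (0.970 to 1.08) for LV over RV. Pln lies within Cep85l on the opposite strand, counted separately with 631 UMIs.

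Set against the pump it acts on, Pln UMIs were higher in LA than in RA and in LV than in RV within every library, an order that read counts did not keep. There were 19.2 Pln UMIs per 100 Atp2a2 UMIs in LA and 15.5 in RA, and 18.7 in LV and 16.4 in RV. This count ratio does not depend on the total used for CPM. In libraries A to D it was 22.1, 17.1, 20.2 and 18.0 in LA, against 14.5, 15.6, 15.7 and 16.7 in RA. Every LA value is above every RA value, and the ratio of the pooled ratios was 1.24 (1.10 to 1.40). Without the 2 deep RA cells RA of library C was at 19.3, above LA of libraries B and D, and the ratio of the pooled ratios was 1.15 (0.987 to 1.33), an interval that holds 1. In LV it was 19.2, 17.9, 16.2 and 21.6, against 19.1, 15.2, 14.9 and 17.8 in RV. LV was above RV in each library, by little in A, and the ranges overlap, with a ratio of the pooled ratios of 1.14 (1.07 to 1.20). In read counts the order turned round in 1 library of each comparison: there were 8.54 Pln reads per 100 Atp2a2 reads in LA of library D, against 23.1 in RA, and 8.13 in LV of library C, against 8.45 in RV. How often other gene pairs do the same was not computed.

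Slc8a1 encodes NCX1, the sodium-calcium exchanger that carries calcium out of the cell, and lies at chr17:81373105-81738377 on the minus strand. In libraries A to D it stood at 463, 426, 245 and 979 CPM in LA and 726, 908, 901 and 637 CPM in RA, with LA below RA in 3 libraries and above it in library D. LV held 953, 856, 673 and 745 CPM and RV 853, 949, 532 and 1072 CPM, with LV above RV in libraries A and C and below it in B and D. Of the 10 genes Slc8a1 had the lowest atrial to ventricular ratio, at 0.715 (0.663 to 0.771), which was below 1 in libraries A, B and D and 1.24 in library C. Without library C it was at a log2 ratio of -0.80, past 1.5-fold, and it also passed 1.5-fold without the 2 deep RA cells, at -0.67, and without the single cell with most of its UMIs, at -0.63. Per 100 Atp2a2 UMIs there were 9.04 Slc8a1 UMIs in LA and 12.5 in RA, and 14.7 in LV and 13.6 in RV.

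Camk2d, at chr3:126596302-126846326 on the plus strand, had the fewest UMIs of the atrial members after Jph2, with 273 in LA and 169 in RA. It stood at 291, 250.3, 254 and 687 CPM in LA and 271, 693, 366 and 91.0 CPM in RA, where library D held the lowest RA value, from 3 UMIs, and the lone high LA value, from 40 UMIs. LV stood at 356, 269, 317 and 313 CPM and RV at 304, 301, 240.2 and 359 CPM, and the ranges overlap. The ratios were 1.03 (0.927 to 1.15) for atrial over ventricular, 0.813 (0.669 to 0.991) for LA over RA and 1.06 (0.963 to 1.17) for LV over RV.

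**Figure D1:**
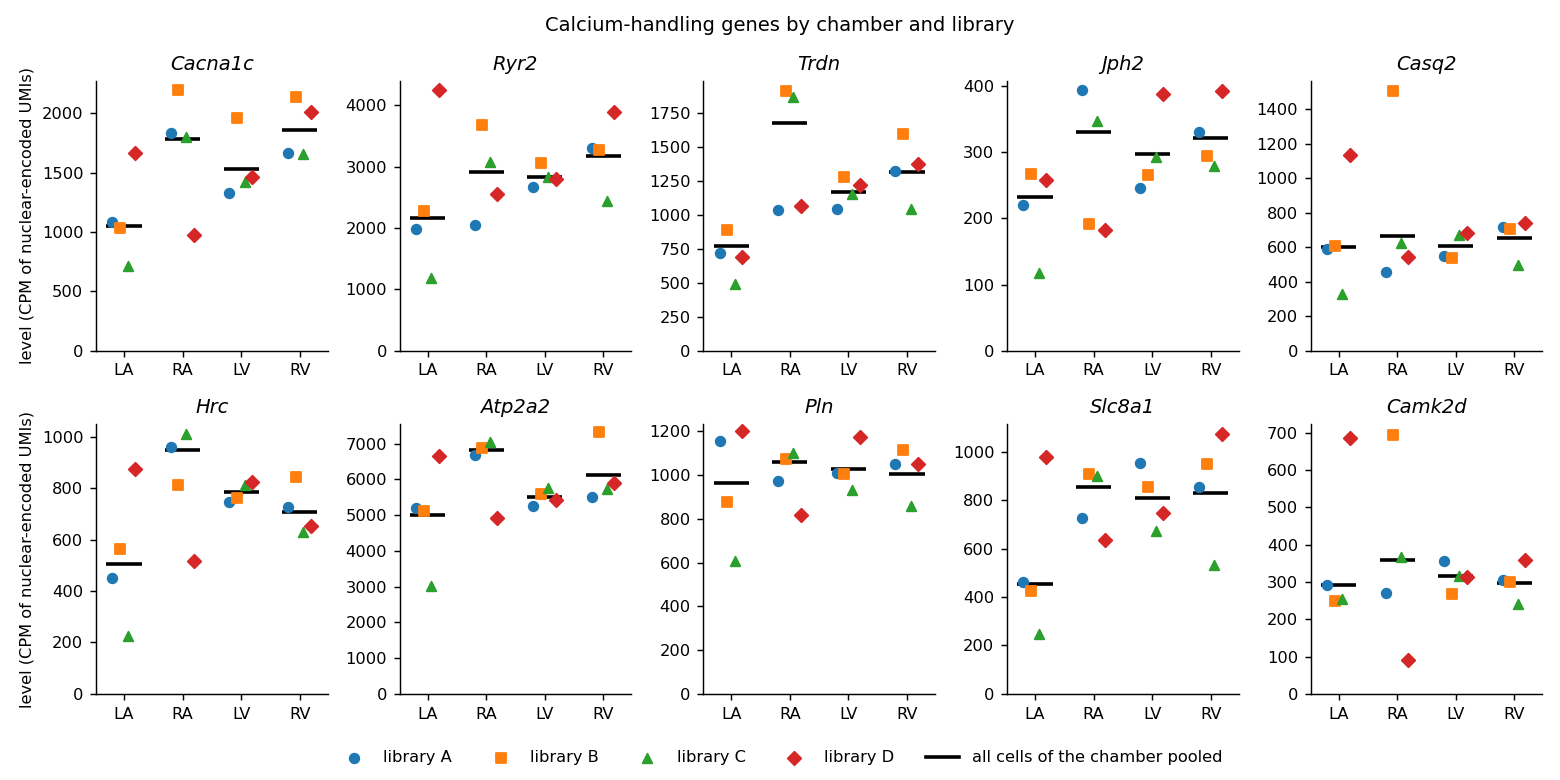
Level of each calcium-handling gene (vertical axis, CPM of nuclear-encoded UMIs, from 0) in LA, RA, LV and RV cells; each point is 1 library and the black line the pooled chamber. LA and RA points scatter more than LV and RV points for most genes. For Slc8a1 the RV points (532 to 1072 CPM) spread wider than the RA points (637 to 908 CPM). For Trdn all LA points (490 to 890 CPM) lie below all RA points (1033 to 1911 CPM), which they do not once the mesothelial-rich cells are left out.

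Between the atrial labels, 4 of the 10 genes were at least 1.5-fold lower in LA than in RA: Trdn, Hrc, Slc8a1 and Cacna1c. Their ratios were 0.460, 0.532, 0.530 and 0.591, none was 1.5-fold higher, and the pooled ratio was below 1 for all 10. Without the mesothelial-rich cells it was above 1 for Pln and Casq2, at log2 ratios of 0.11 and 0.10. Among all genes with at least 30 UMIs, 49.0% were at least 1.5-fold apart either way, and among those with at least 300 UMIs 19.3%, with 11.2% on the lower side. The median log2 ratio was -0.48 for the 10, against 0.11 for all genes with at least 30 UMIs and -0.12 for those with at least 300. Relative to the all-gene median, Trdn was at -1.23 and Pln, the member nearest to 1, at -0.25.

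This difference rests unevenly on libraries and cells. In library C all 10 had a ratio below 1 and 9 were at least 1.5-fold lower, with a median log2 ratio of -1.35 from 6 LA and 17 RA cells. In library D Trdn alone was lower, 6 members were at least 1.5-fold higher and the median was 0.68, from 5 LA and 8 RA cells. Without library C the 4 genes were still past 1.5-fold, with Trdn at -0.66, Slc8a1 at -0.66, Hrc at -0.61 and Cacna1c at -0.67. With each cell weighted equally, no member was 1.5-fold apart and the median was -0.11; for Trdn the value was -0.57. The 2 LA cells rich in mesothelial UMIs had little of any member: Ryr2 stood at 172 and 170 CPM in them, and Atp2a2 at 517 and 525 CPM. Without the 3 mesothelial-rich atrial cells the median was -0.24 and Trdn, Slc8a1 and Hrc were still past 1.5-fold lower, at -0.87, -0.74 and -0.69, while Cacna1c, at -0.52, was not. Without the 2 deep RA cells the 4 genes were still past 1.5-fold, with Trdn at -0.88. Leaving out the cells with over 2% non-myocyte marker UMIs, which are 26 LA and 35 RA cells, put 8 members past 1.5-fold lower and Trdn at -1.30.

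LV and RV were close. No member was 1.5-fold apart between LV and RV, where 28.8% of genes with at least 30 UMIs and 4.0% of those with at least 300 were. The ratios ran from 0.824 for Cacna1c to 1.11 for Hrc, and the median log2 ratio was -0.10, against 0.04 for all genes. Cacna1c was the only member on the same side in all 4 libraries, with within-library ratios from 0.728 to 0.918. How many of all genes did so was not computed. In library C the median of the members was 0.18, with 20 LV and 23 RV cells, and in the other 3 libraries it was between -0.19 and -0.15. The LV and RV library values of every member overlap; non-overlap was seen in 1.49% of genes with at least 300 UMIs, and between the atrial and ventricular library values in 6.1%. No member was without overlap in that comparison either.

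**Figure D2:**
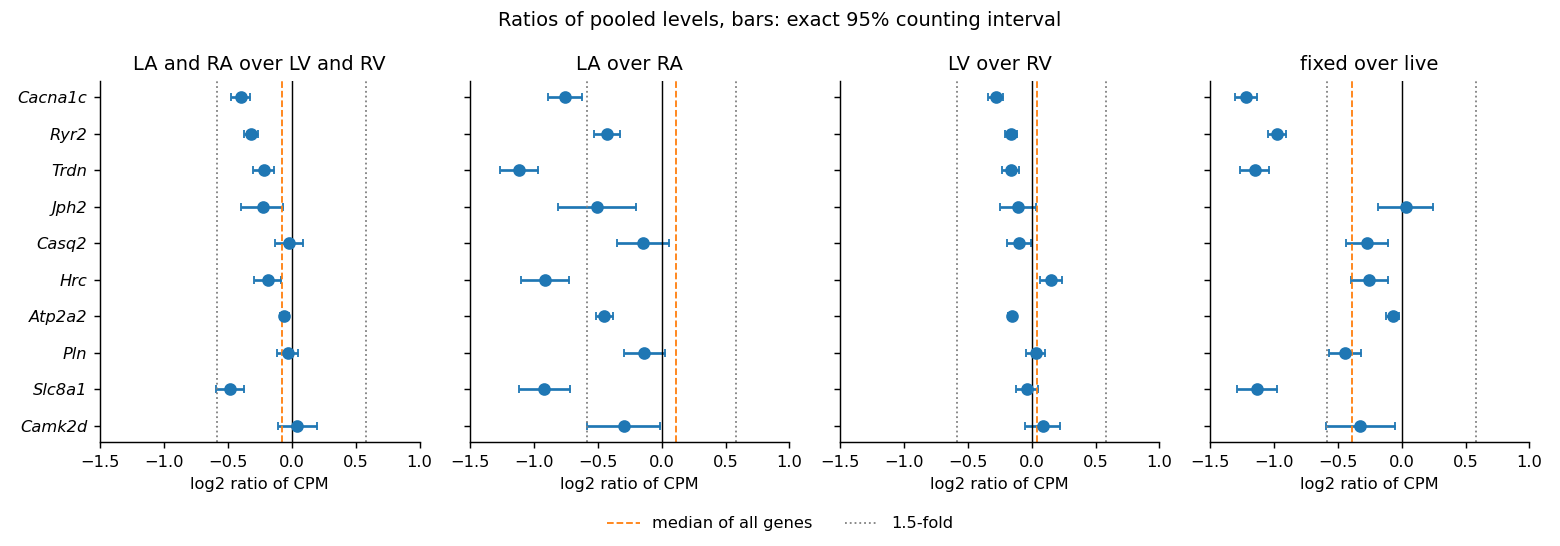
Log2 ratio of pooled CPM (horizontal axis) for each gene in the 4 comparisons, named above each panel as first over second group; bars are exact 95% counting intervals, dotted lines 1.5-fold and the dashed line the median of all genes. Cacna1c, Ryr2, Trdn and Slc8a1 lie past the left dotted line in fixed over live, and Cacna1c, Trdn, Hrc and Slc8a1 in LA over RA.

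Between fixed and live cells the 10 genes parted. In the pools Cacna1c, Ryr2, Trdn and Slc8a1 had ratios of 0.430 to 0.508, and the other 6 were within 1.5-fold, from 0.735 for Pln to 1.02 for Jph2. The split depends on pooling: 5 members were at least 1.5-fold lower with each cell weighted equally, and 5 with per-cell medians. In this comparison 50.8% of all genes with at least 30 UMIs were at least 1.5-fold apart, and of those with at least 300 UMIs 34.6% were, 27.0% on the lower side; the members' count is near the background share. The median log2 ratio was -0.38 for the 10 and -0.38 for all genes with at least 30 UMIs. Over genes with at least 300 UMIs, as each of the 10 has, it was -0.18. Relative to the -0.38 of genes with at least 30 UMIs, Cacna1c was at -0.83, Trdn at -0.77, Slc8a1 at -0.75 and Ryr2 at -0.59, and Jph2 at 0.42. The 10 genes made up 0.756% of nuclear-encoded UMIs in fixed and 1.10% in live cells. With pseudogenes and ribosomal RNA genes outside the total, the median log2 ratio of the 10 was -0.49 and 4 were at least 1.5-fold lower. Malat1, a nuclear-retained non-coding transcript, had 1200 CPM in the fixed pool and 5447 CPM in the live pool, and the median mitochondrial share was 13.8% in fixed and 26.1% in live cells; their part in the ratios was not tested. No animal or day is named for these cells, so either and fixation cannot be told apart.

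On the entry and release side, Cacna1c over single cells was at lowest 119.8, median 662 and highest 2530.4 CPM in fixed cells, against lowest 431, median 1567 and highest 4549.7 CPM in live cells. Of 35 fixed cells 31 were below the live median. The pooled ratio was 0.430 (0.405 to 0.456). Ryr2 was at lowest 434, median 1129 and highest 2399.7 CPM in fixed cells and at lowest 863, median 2108 and highest 3658 CPM in live cells, with a pooled ratio of 0.508 (0.483 to 0.534). The ranges overlap, and 12 of 31 live cells lay above the highest fixed cell. Trdn was the most separated gene, at lowest 151, median 399 and highest 1044 CPM in fixed cells and lowest 309, median 944 and highest 2039.5 CPM in live cells. Here 34 of 35 fixed cells were below the live median and 30 of 31 live cells above the fixed median, and the pooled ratio was 0.451 (0.416 to 0.488).

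The junction and store genes stayed within 1.5-fold. Jph2 had 193 CPM in the fixed and 189 CPM in the live pool, a ratio of 1.02 (0.879 to 1.19) that was just under 1 without the top cell of each pool, at a log2 ratio of -0.05, and was at -0.18 in read counts. Casq2 had 292 CPM in the fixed pool and 352 CPM in the live pool, a ratio of 0.827 (0.738 to 0.928), and Hrc 388 CPM in the fixed pool and 462 CPM in the live pool, a ratio of 0.839 (0.760 to 0.928). Single cells of the 2 groups overlap over most of their range for all 3 genes, which were at 0 in some cells of both groups. Counted against each other, there were 16.5 Jph2 UMIs per 100 Ryr2 UMIs in fixed and 8.23 in live cells, a ratio of 2.01 (1.71 to 2.36), and 153 Trdn UMIs per 100 Casq2 UMIs in fixed and 280.1 in live cells, a ratio of 0.545 (0.474 to 0.627). Hrc per Casq2 was 1.01 (0.871 to 1.18).

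On the reuptake and extrusion side the pump stayed near 1 and the exchanger did not. Atp2a2 over single cells was at lowest 1533, median 3365 and highest 5641 CPM in fixed cells and at lowest 1934, median 3641 and highest 7324 CPM in live cells, with a pooled ratio of 0.952 (0.920 to 0.986). The ranges overlap but for 4 fixed cells below every live cell and 1 live cell above every fixed cell. Pln was at lowest 112, median 463 and highest 1049.9 CPM in fixed cells and at lowest 189.5, median 647 and highest 1761 CPM in live cells, a pooled ratio of 0.735 (0.674 to 0.802), and 28 of 35 fixed cells were below the live median. Slc8a1 was at lowest 0, median 217 and highest 629.8 CPM in fixed cells and at lowest 0, median 462 and highest 3019.6 CPM in live cells, a pooled ratio of 0.456 (0.410 to 0.508). The ranges overlap, and 10 of 31 live cells lie above every fixed cell. Per 100 Atp2a2 UMIs there were 7.11 Slc8a1 UMIs in fixed and 14.8 in live cells, 13.5 Pln UMIs in fixed and 17.4 in live cells, and 33.6 Ryr2 UMIs in fixed and 62.9 in live cells. The ratios of these ratios were 0.479 (0.428 to 0.536), 0.772 (0.703 to 0.848) and 0.534 (0.502 to 0.567). Camk2d, with 107 CPM in the fixed pool and 134 CPM in the live pool, had the fewest counts and a ratio of 0.800 (0.662 to 0.967).

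The size of these ratios depends on the scaling, which shifts every gene by the same amount. With TMM factors, which centre most genes on no change, the median of the 10 turned to 0.11 and with median-of-ratios factors to 0.18, and Atp2a2, Casq2, Hrc, Pln and Camk2d then had a log2 ratio above 0. Under those 2 scalings Cacna1c was at -0.72 and -0.66, Trdn at -0.65 and -0.59, Slc8a1 at -0.63 and -0.57 and Ryr2 at -0.48 and -0.41, all still below 0, with Ryr2 in both and Slc8a1 in the second no longer past 1.5-fold. Jph2 was then at 0.53 and 0.59. In read counts, which can change the order of the genes, Cacna1c was at -0.98, Trdn at -0.96, Slc8a1 at -0.94 and Ryr2 at -0.77, again the 4 lowest, while Jph2, the highest in UMIs, was at -0.18, below Atp2a2 at 0.38, Hrc at 0.19 and Casq2 at -0.15. The partner ratios above need no scaling.

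**Figure D3:**
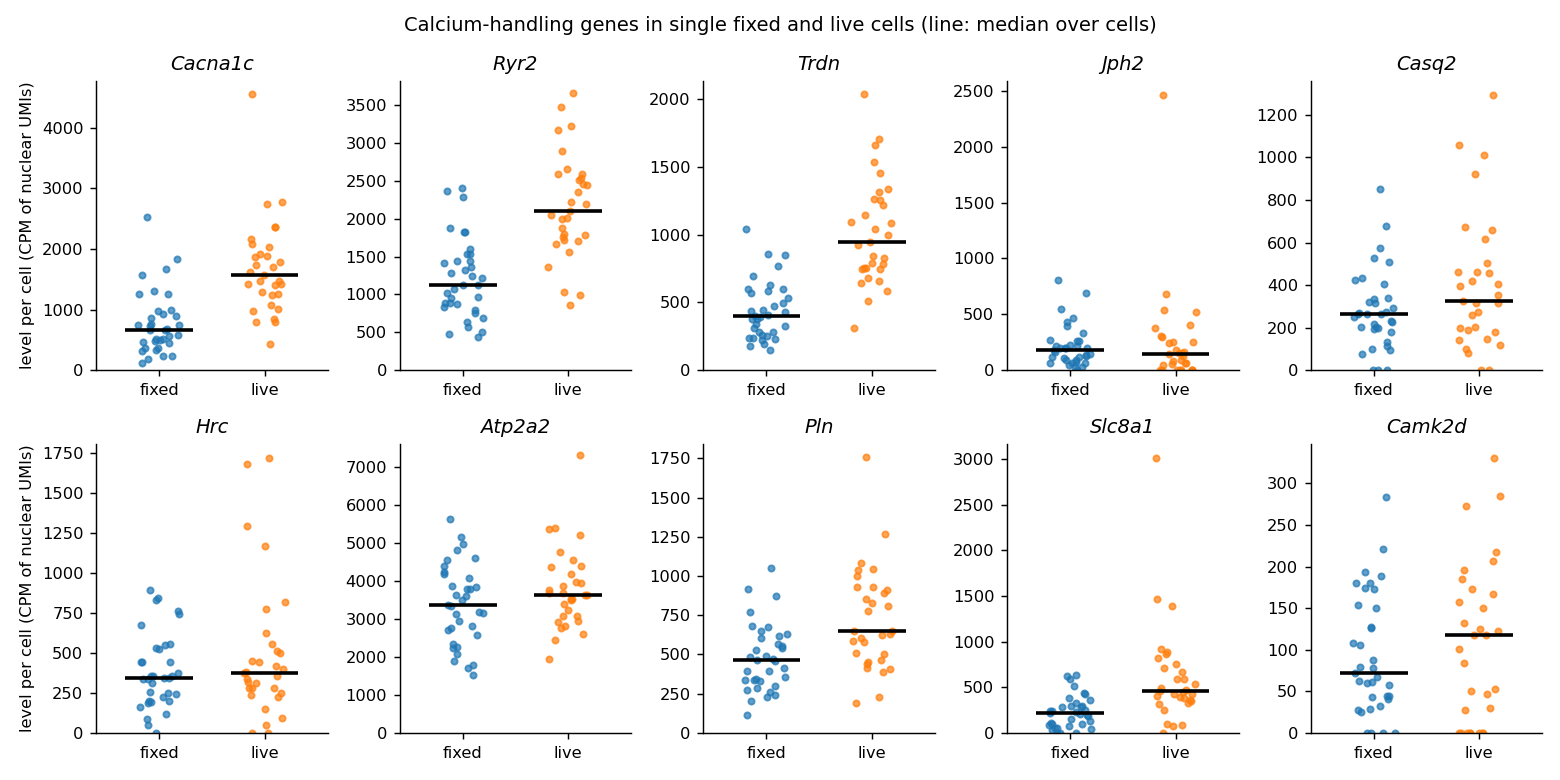
Level of each gene in single cells (vertical axis, CPM of nuclear-encoded UMIs, from 0) for 35 fixed and 31 live cells; each point is 1 cell and the line the median. Fixed and live points separate most for Trdn, Ryr2, Cacna1c and Slc8a1 and lie over each other for Atp2a2, Jph2 and Hrc.

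The 4 genes at least 1.5-fold lower in the fixed pool are also the 4 longest of the 10 in the annotation, a property looked at after the ratios were seen. From the longest down, the gene bodies span 609 kb for Cacna1c, 554 kb for Ryr2, 396 kb for Trdn and 365 kb for Slc8a1, then 250.0 kb for Camk2d, 61.8 kb for Jph2, 60.1 kb for Casq2, 48.7 kb for Atp2a2, 8.32 kb for Pln and 3.69 kb for Hrc. Long genes were also lower among all protein-coding genes with at least 300 UMIs. Their median log2 ratio of fixed over live was -0.05 for 283 genes under 10 kb, 0.01 for 190 genes of 10 to 30 kb, -0.23 for 193 genes of 30 to 100 kb, -0.51 for 145 genes of 100 to 300 kb and -0.85 for 121 genes of at least 300 kb. Over these 932 genes Spearman's rho between span and ratio was -0.30, given as a description because genes of 1 pool share their cells and total. The 4 long members, at -0.98 to -1.22, lie below the median of their own bin, which is -0.81 without them. The lower quartile of the bin, taken with the members in it, is -1.22, which is the value of Cacna1c itself. Camk2d, at -0.32, lies above the median of its bin. Between the atrial and ventricular labels the bin medians ran down with span, 0.03, -0.03, -0.06, -0.15 and -0.26, and between LV and RV they stayed between -0.03 and 0.03. Between LA and RA they were -0.09, -0.18, -0.13, -0.32 and -0.19, with no steady order, and the share of genes at least 1.5-fold lower was 4.37% in the shortest bin and 29.8% in the longest.

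**Figure D4:**
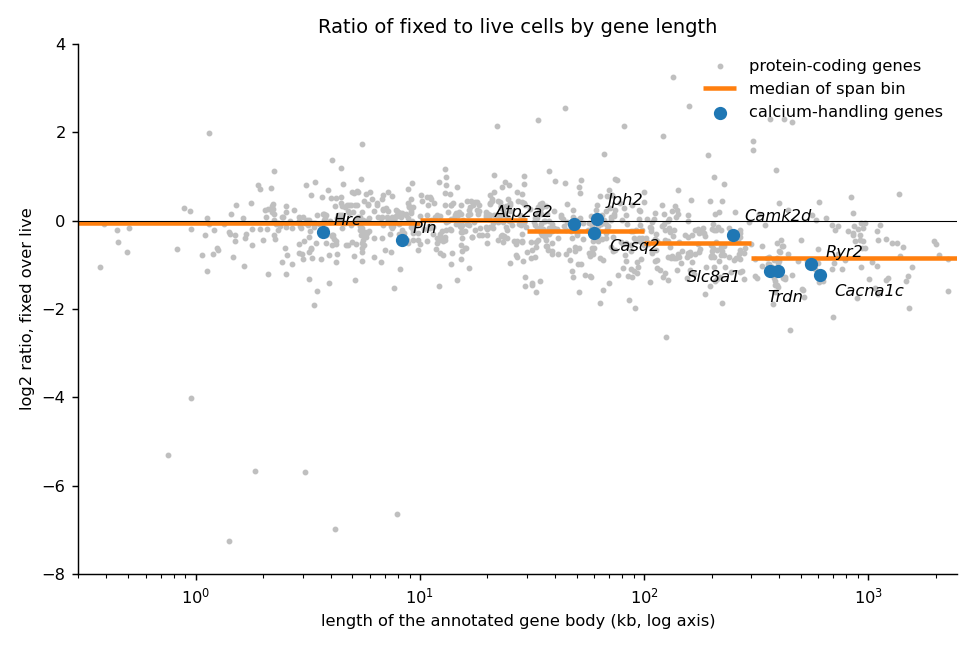
Log2 ratio of fixed over live cells (vertical axis) against the length of the annotated gene body (horizontal log axis, kb) for 932 protein-coding genes (grey), with the median of each span bin (bars) and the 10 calcium-handling genes (labelled). Cacna1c, Ryr2, Trdn and Slc8a1 sit in the longest bin, whose median is -0.85.

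Summed, the 4 long members (Cacna1c, Ryr2, Trdn, Slc8a1) had 54.4 UMIs per 100 UMIs of 5 shorter ones (Jph2, Casq2, Hrc, Atp2a2, Pln) in fixed and 105.7 in live cells, with intervals of 52.7 to 56.0 and 102.5 to 109.0. Single-cell values were taken over the 34 fixed and 31 live cells with at least 20 UMIs of the long and shorter genes together. They were lowest 20.4, median 50.8 and highest 113 in fixed cells, and lowest 32.5, median 96.5 and highest 200.0 in live cells. In the chambers the sums gave 60.8 in LA and 73.5 in RA, and 77.1 in LV and 81.5 in RV. Malat1 followed the same order in the 4 chamber pools, with 3034 CPM in LA and 3129 in RA, and 3446 in LV and 3753 in RV. Within libraries that order did not hold throughout: LA was above RA in B, at 3557 against 2890.1 CPM, and in C, at 3733 against 3258 CPM, and LV was above RV in A, at 3410 against 3113 CPM. These pools also differ in depth and in RNA of other cell types, as above.

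From cell to cell within a group the 10 genes varied by different amounts. Cells with at least 20000 nuclear-encoded UMIs were thinned to that number, and the coefficient of variation beyond counting error was taken with chamber and library means removed. Over 124 LV and RV cells it was lowest for Atp2a2, at 31.4%, and Pln, at 33.9%, and highest for Camk2d, at 61.3%, Slc8a1, at 58.5%, and Jph2, at 55.9%. The median over the 537 genes with a mean of at least 5 UMIs was 46.8%. Atp2a2 was at the 12.7th percentile of these genes and Camk2d at the 82.1st. Over 33 fixed cells Atp2a2 and Pln were again low, at 31.0% and 33.4%, against a median of 50.4% over all genes. Over 21 live cells Atp2a2 was at 17.9%, against 46.2%. Pln, at 35.0%, was there above Trdn, at 26.2%, and above Ryr2 and Cacna1c, given next. Hrc was the highest member measured in live cells, at 92.3%. In 27 live cells thinned to 10000 UMIs, Atp2a2 was at 26.5%, above Ryr2 at 25.6%, Cacna1c at 24.3% and Trdn at 23.0%. For Cacna1c the value was 64.3% in fixed and 32.6% in live cells, and for Ryr2 37.2% in fixed and 28.1% in live cells.

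Several members varied together in LV and RV cells. Pairs of members had a lower median r in live cells of the fixation study, though over fewer pairs, cells and UMIs. The pairs described were picked after the values were seen. Over the 124 LV and RV cells, Pearson's r of log2(thinned count + 1) was 0.72 for Ryr2 with Cacna1c, 0.70 for Ryr2 with Slc8a1, 0.67 for Cacna1c with Slc8a1 and 0.60 for Ryr2 with Trdn. These are the channel, the release receptor and its anchor, and the exchanger. For the pump, its inhibitor and a store protein r was 0.58 for Atp2a2 with Pln, 0.57 for Atp2a2 with Hrc and 0.54 for Hrc with Pln. Between these groups of genes r was low for some pairs, at 0.28 for Ryr2 with Pln and 0.16 for Slc8a1 with Pln, but Atp2a2 was at 0.50 with Ryr2, 0.50 with Cacna1c and 0.51 with Trdn. Over the 98 cells with at most 2% non-myocyte marker UMIs, Atp2a2 was at 0.63 with Ryr2, 0.60 with Cacna1c and 0.55 with Trdn, above its 0.49 with Pln and 0.44 with Hrc, and Hrc with Pln was at 0.38. Among the other group Ryr2 with Cacna1c was still at 0.73 there and Ryr2 with Slc8a1 at 0.69. Jph2 and Camk2d had the lowest r, -0.02, of the 45 pairs, and both also had the fewest UMIs.

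The median over the 45 pairs was 0.28, against 0.09 over all pairs of the 537 genes. Cells share their thinned total here, and a cell rich in other RNA is low in all myocyte genes at once; over the 98 cells with at most 2% non-myocyte marker UMIs the medians were 0.31 for the pairs of members and 0.06 for all pairs. Other long genes were compared if their mean was at least 5 UMIs, and they were not matched on level. In LV and RV cells the 4 long members had means from 16.0 UMIs for Slc8a1 to 59.3 for Ryr2. The median r among the 4 long members was 0.64 in LV and RV cells, where it was 0.06 among 50 other protein-coding genes of at least 300 kb. In 21 live cells it was -0.02 among the 4 long members and 0.01 among 51 other long genes, with Ryr2 and Cacna1c at 0.48 but Ryr2 and Slc8a1 at -0.15 and Cacna1c and Slc8a1 at -0.28. In 33 fixed cells it was 0.22 among the 3 long members with enough UMIs and 0.05 among 24 other long genes. Over all pairs of members, in 33 fixed cells the median over 21 pairs was 0.28, against 0.12 for all pairs, and in 21 live cells it was 0.06 over 28 pairs, against 0.05. With thinning to 10000 UMIs it was 0.21 over 28 pairs in LV and RV cells, against 0.12 for all pairs. In 27 live cells it was then 0.10 over 15 pairs, against 0.02. These medians rest on unlike sets of pairs, cells and counts, whose part in the gap was not tested. The sum of long over that of short members, taken from those with a mean of at least 5 UMIs, was also set against Malat1. In LV and RV cells r was 0.51 (4 long over 5 short), in fixed cells 0.55 (3 over 4) and in 21 live cells -0.36 (4 over 4). With thinning to 10000 UMIs r was 0.46 in LV and RV cells (4 over 4) and 0.63 in fixed cells (2 over 1). In 27 live cells it was 0.10 (4 over 2). These r values therefore rest on unlike sums.

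**Figure D5:**
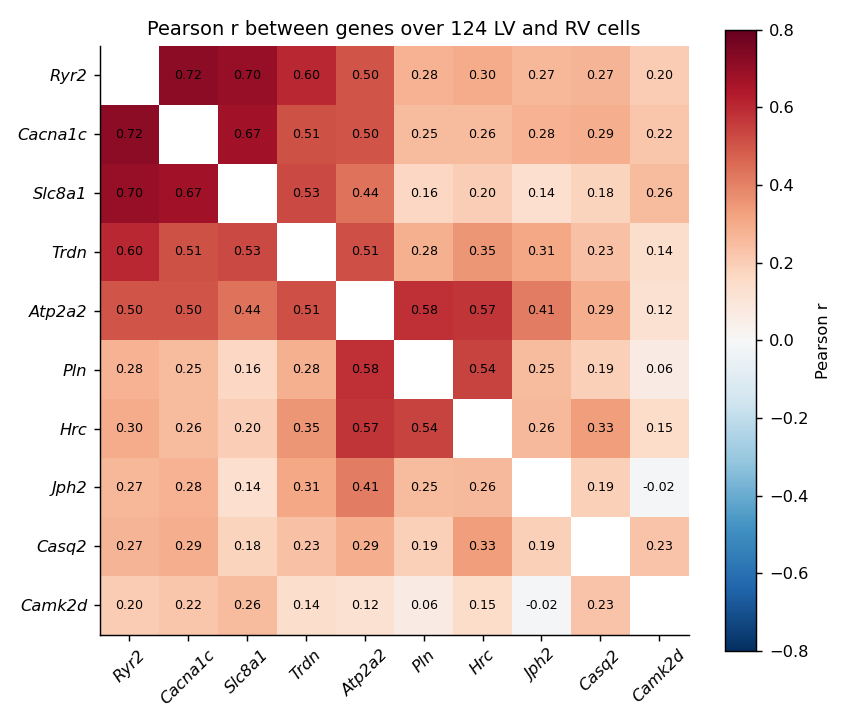
Pearson's r between the log2 thinned UMI counts of each pair of genes over 124 LV and RV cells, with chamber and library means removed (colour scale from -0.8 to 0.8). The highest value is 0.72 for Ryr2 with Cacna1c and the lowest -0.02 for Jph2 with Camk2d; Atp2a2 is at 0.50 or above with Ryr2, Cacna1c, Trdn, Pln and Hrc.

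The genes outside the 10 whose level followed their mean most closely over these cells were sarcomere and fuel genes. Ttn, the giant spring protein of the sarcomere, had r of 0.86; Myh6, the adult mouse cardiac myosin heavy chain, 0.78, Actn2, the Z-disc actinin, 0.73, Lpl, the lipase that frees fatty acids from lipoproteins, 0.69 and Tnnt2, cardiac troponin T, 0.61. In 33 fixed cells, where 7 members had enough UMIs to enter the mean, the same 5 had 0.58, 0.40, 0.49, 0.60 and 0.45. In 21 live cells, with 8 members in the mean, they had 0.29, 0.21, 0.28, 0.06 and 0.39. The means are thus not of the same genes as in LV and RV cells.

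Beyond the 10 genes, a list of 60 further calcium-handling genes covers channel subunits, the dyad, the store, extrusion, kinases with calmodulin and phosphatases, and mitochondrial calcium. In fixed over live cells 42 of the 60 had at least 30 UMIs, of which 18 were at least 1.5-fold lower and 2 higher, 47.6% in all, beside the 50.8% of all genes. The channel subunits Cacnb2, at 0.390 (0.334 to 0.456), and Cacna2d1, at 0.596 (0.505 to 0.703), were lower together with the pore Cacna1c, and so was Rrad, which restrains the channel, at 0.653 (0.576 to 0.740). Cacna1d, another pore subunit, was lower as well. In the release unit Asph, Itpr1, Itpr2 and Tmem38b were lower, while S100a1, a calcium sensor that binds both the pump and the receptor, was at 0.901 (0.826 to 0.985), Tmem38a, a counter-ion channel of the store, at 1.10 (0.949 to 1.28) and Jph1, the relative of Jph2, higher at 2.11 (1.06 to 4.59) from 38 and 11 UMIs. Of the store genes Srl, sarcalumenin, was at 1.27 (1.11 to 1.45), while Calr, Stim1 and Orai1 were lower; Stim1, the store sensor, had 5 UMIs in fixed and 41 in live cells. Akap6, the scaffold that brings protein kinase A to the dyad, was at 0.428 (0.377 to 0.486), Akap7, Calm2 and Ppp3ca were lower too, and Ppp1cb, a phosphatase subunit, was at 0.925 (0.765 to 1.12). Smdt1, a subunit of the mitochondrial uniporter, was at 1.50 (1.24 to 1.83), just short of the threshold, and Letm1 and Micu3 were lower. Atp2b1, a calcium pump of the surface membrane, was at 0.625 (0.409 to 0.955), and Camk2b, higher, rested on 27 and 8 UMIs.

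In the atrial over ventricular comparison 48 of the 60 had at least 30 UMIs, 5 were at least 1.5-fold higher (Rem1, Stim1, Orai1, Atp2b4 and Micu3) and 6 lower (Atp2a3, Atp2b2, Camk2g, Prkaca, Ppp1r3a and Ppp3cb), 22.9% in all beside the 40.2% of all genes. Of these only Prkaca, the catalytic subunit of protein kinase A, and Ppp1r3a, a targeting subunit of protein phosphatase 1, had over 100 UMIs in the atrial pool; their ratios were 0.662 (0.555 to 0.786) and 0.560 (0.453 to 0.686). Between LA and RA 8 of 38 were higher, among them Ahnak, Fkbp1a, Calr, Atp2b1, Calm2 and Ppp3ca, and 6 lower (Cacna2d1, Cmya5, Itpr1, Camk2b, Akap6 and Letm1). The share in all, 36.8%, stands beside 49.0% of all genes. Akap6 was at 0.337 (0.279 to 0.407) and Itpr1, an inositol trisphosphate receptor and thus another release channel, at 0.462 (0.327 to 0.653), the same direction as Trdn, whereas Ahnak, a large protein that binds the channel's beta subunit, was at 2.93 (2.28 to 3.81) and Fkbp1a, a binding protein of the ryanodine receptor, at 1.99 (1.37 to 2.95). For Ahnak a single cell gave 38.1% of its LA UMIs. Between LV and RV 7 of 46 were higher (Cacna1d, Cacna1g, Itpr2, Atp2a3, Stim1, Orai1 and Atp2b4) and 3 lower, among them Sri and Micu3, all with at most 142 UMIs in either pool, 21.7% in all beside 28.8%, and Atp2b4, a plasma membrane calcium pump, was at 2.65 (1.74 to 4.12) from 75 and 33 UMIs.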

How the data were processed

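The authors' deposited files are 1 table of UMI counts, 1 of read counts and 1 of cell labels for each study, with genes as Ensembl IDs. Per the submitters' processing notes, the tools were STAR 2.5.4b, an aligner, and featureCounts, a read counter, with the build GRCm38; the sources used here name neither strand use nor gene annotation. UMI counts collapse PCR copies; the deposited read counts do not. Of the barcodes, 45 carry no label (21 and 24) and were left out. Symbols, gene spans and the Pln sequence come from GENCODE M21.

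Cells of 1000 or more gene UMIs and 500 or more genes were summed per label, and per label and library. A level is 1000000 times the gene's UMIs over nuclear-encoded UMIs. Ratios have exact 95% Clopper-Pearson intervals, and ratios of partner ratios exact conditional intervals. These cover counting error only. No test was possible with 1 pool a group; at least 1.5-fold is used as a size threshold, over genes with at least 30 UMIs in both groups together. The floor for a count of 0 is 3 UMIs. Percent values in the deposited label tables were not used; shares were computed from counts. No doublet caller was run. Spread and correlations use cells thinned to 20000 UMIs. Alternatives were other totals and scalings (TMM from edgeR, median-of-ratios), read counts, per-cell means that weight cells equally, a pseudocount of 5 CPM, stricter cell filters and left-out cells or libraries. Scripts were tested on simulated data.

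The 10 genes, the wider list and the markers were chosen with earlier results of these data known. Of the wider list, the genes at least 1.5-fold apart and the leading genes of each role by level are named, and the 5 genes most like the mean of the members; some genes that the counts include are not reported here by name. R 4.3.3 with edgeR 4.0.16 gave the TMM factors. All else was computed in Python 3.11.15, with scipy 1.17.1 for intervals, pandas 2.3.3 and numpy 2.4.6 for tables, and matplotlib 3.10.9 for plots.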

Additional observations from a re-analysis of the deposited data

Results flagged for a closer look

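Over the 40 sets of 4 library values, 1 set for each gene and chamber, 4 sets held a library far from the other 3 by the gap to its neighbour. The rate of about 1 in 20 by chance alone holds for independent sets of equally precise values. These libraries differ in their number of cells and the sets share cells, so the count cannot be judged by that rate. Camk2d, the kinase gene, was high in LA of library D, at 687 CPM from 5 cells. Casq2, the store protein gene, was high in RA of library B, at 1505 CPM from 8 cells. Atp2a2, the pump gene, was low in RA of library D, at 4914 CPM from 8 cells. Casq2 was low in RV of library C, at 498 CPM from 23 cells.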

How the results depend on the processing

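The labels give no replicate numbers. Chambers were compared within each of libraries A to D, which hold all 4 chambers, each in barcode rows of its own. Fixed and live cells are 1 pool each with no such block. The median log2 ratio of the 10 genes and the number at least 1.5-fold lower or higher were recomputed in every setting; those that moved follow, and the cause was not tested. For atrial over ventricular cells (median -0.20, 0 lower) the median was -0.046 with all gene UMIs as the total and -0.041 with mesothelial-rich cells left out. It was -0.37 with 1 lower once the 2 deep RA cells were left out, and -0.32 with 1 lower once the top cell of each gene was. Read counts gave 2 lower and 1 higher, and leaving out cells over 2% non-myocyte marker UMIs 1 lower. Within libraries A, B and D 2 were lower, and the median was -0.36 in B, 0.10 in C and -0.017 in D. Leaving out each library gave medians of -0.35 (without C) to -0.089 and 0 to 1 lower. For LA over RA (median -0.48, 4 lower) equal weight per cell gave -0.11 and 0 lower, read counts -0.84 and 7 lower, leaving out non-myocyte cells -0.85 and 8 lower, leaving out the deep RA cells -0.28 and leaving out mesothelial-rich cells -0.24. The median was -0.89 within library B, -1.35 with 9 lower within C, and 0.68 with 1 lower and 6 higher within D, where Cacna1c (0.78), Hrc (0.76) and Slc8a1 (0.62) reversed. Leaving out each library gave -0.59 to -0.26 (without C) and 4 to 5 lower. For LV over RV (median -0.10) it was -0.20 with median-of-ratios factors, 0.18 within library C, and -0.20 (without C) to -0.038 with a library left out. For fixed over live cells (median -0.38, 4 lower) it was -0.14 with all gene UMIs and 0.11 with TMM factors. Median-of-ratios factors gave 0.18 with 2 lower and 1 higher, per-cell medians -0.59 with 5 lower and equal weight per cell -0.56 with 5 lower. The settings without the deep or mesothelial-rich cells, without pseudogenes in the total, with per-cell medians, the library values without the deep or mesothelial-rich cells, the grouping by gene span, Ryr2 per Atp2a2 and the long over short sums were chosen after seeing the data. With no minimum of UMIs, the share of genes at least 1.5-fold apart was 59.6% for atrial over ventricular, 68.4% for LA over RA, 52.3% for LV over RV and 69.3% for fixed over live cells. Depth limits Jph2 and Camk2d most, and 5 LA and 8 RA cells limit library D.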
